A study of Homo sapiens with 8 samples.

Results

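Actin isoforms, transgelins and calponins were followed in RD cells, an established human line from a rhabdomyosarcoma, a tumour with features of skeletal muscle, after silencing of the homeobox transcription factor PROX1. The group was a list of 10 gene symbols matched to the Ensembl identifiers of the count files, and all 10 were found among the 58302 genes of the series: ACTA1, ACTA2, ACTB, ACTC1, ACTG1, ACTG2, TAGLN, TAGLN2, CNN2 and CNN3. The genes were chosen by gene family, with earlier results of these data known. The tested group held 4 libraries of RD cells with a short hairpin RNA against PROX1 (shPROX1), and the other 4 libraries came from RD cells with a scrambled hairpin (control). The series design states a silencing of 75%. In these counts PROX1 stood at 47.6% of the control level, a smaller fall, and the reason for the difference was not tested. Both groups were cultured in the same serum-containing medium, both are the same cell line, and the labels give neither the hairpin sequence nor the time after silencing. The series design calls the libraries biological replicates, but no label ties them to separate cultures, so p-values measure the spread between these libraries.

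Actin is the filament protein on which myosin pulls, and vertebrates make it from separate genes. ACTB and ACTG1 encode the beta and gamma actins of the cytoplasm of nearly every cell. ACTA1 is the alpha actin of adult skeletal muscle, ACTC1 the alpha actin of the heart, which skeletal muscle also makes during development, and ACTA2 and ACTG2 are the smooth muscle actins. Transgelins and calponins are small related proteins that bind along actin filaments. TAGLN (transgelin, or SM22-alpha) marks smooth muscle and contractile fibroblasts, and TAGLN2 is its widely expressed relative. CNN2 and CNN3 are calponins that are not limited to smooth muscle. Several of these genes are textbook targets of the transcription factor SRF, which binds the CArG box and is switched on by the MRTF cofactors when free actin monomer runs low.

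The 6 actins are near copies of each other, and their proteins are known to differ most at the amino-terminal end. The lines below give, from GENCODE 29 transcripts, the 60 coding bases that begin after the start codon of ACTB, with 4 other actins aligned from their stop codons; capitals mark bases that differ from ACTB at the same distance from the stop.
ACTB: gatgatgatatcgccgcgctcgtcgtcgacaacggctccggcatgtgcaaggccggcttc
ACTG1: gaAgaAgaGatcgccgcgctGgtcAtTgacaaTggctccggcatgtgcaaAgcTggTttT
ACTC1: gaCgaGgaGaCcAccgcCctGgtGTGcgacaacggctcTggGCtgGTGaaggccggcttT
ACTA2: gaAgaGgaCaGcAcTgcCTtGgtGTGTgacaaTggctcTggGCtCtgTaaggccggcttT
ACTG2: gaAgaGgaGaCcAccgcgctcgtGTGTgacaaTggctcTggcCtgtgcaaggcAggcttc
Over the 1125 coding bases compared in this way, ACTG1 differed from ACTB at 99, ACTC1 at 170, ACTG2 at 177 and ACTA2 at 201. By alignment of whole coding sequences, ACTB and ACTG1 shared 91.2% of bases, and ACTC1 and ACTG2 shared 86.1%. The calponins CNN2 and CNN3 shared 65.6% and the transgelins TAGLN and TAGLN2 70.7%. Exact stretches of 75 bases were nonetheless mostly particular to 1 gene, with no stretch of ACTG1, ACTA1, ACTG2 or CNN3 found in a transcript of another gene and 98.8% of those of ACTB, 97.0% of those of TAGLN2, 93.7% of those of ACTC1, 93.6% of those of CNN2 and 91.1% of those of TAGLN found in that gene alone. For ACTA2 this share was 78.2%, and the exons of ACTA2 overlap those of FAS and ACTA2-AS1 on the opposite strand. The sources used here state neither the read length nor the treatment of reads that match several places, and exchange of reads between copies was not tested. Of 45 pseudogenes named after the members, 11 had any count, 116 counts in all over the 8 libraries, and ACTG1P20 alone reached 1 CPM (2.05 CPM on average).

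Promoter windows of RefSeq (GRCh38.p14, from 250 bases before to 50 bases after the start) were held for 8 of the members, all except ACTB and TAGLN. A CArG box, taken as CC, then 6 bases that are each A or T, then GG, stood in 5 of the 14 windows of those genes, belonging to 5 genes, against 1.30% of all 34943 windows. The box reads the same way on both strands, so that 1 scan covered both. ACTG2 held 2 boxes. The windows are shown because the members with a box include genes that changed in opposite directions below; capitals mark the box.
ACTC1 (chr15:34795624-34795683, minus strand): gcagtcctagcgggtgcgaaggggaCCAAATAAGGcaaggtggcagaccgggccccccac
ACTA1 (chr1:229434157-229434216, minus strand): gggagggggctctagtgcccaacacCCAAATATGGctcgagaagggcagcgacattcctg
ACTG2 (chr2:73892873-73892932, plus strand): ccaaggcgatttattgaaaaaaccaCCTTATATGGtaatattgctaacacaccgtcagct
ACTG2 (chr2:73892910-73892969, plus strand): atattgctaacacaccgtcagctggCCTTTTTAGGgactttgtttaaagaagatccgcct
ACTG1 (chr17:81512859-81512918, minus strand): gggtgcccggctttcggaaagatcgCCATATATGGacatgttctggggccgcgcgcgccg
CNN2 (chr19:1026494-1026553, plus strand): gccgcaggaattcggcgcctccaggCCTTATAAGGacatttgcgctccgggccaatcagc
No box was found in the windows held for ACTA2, TAGLN2 or CNN3, which says only that these letters do not occur there.

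Libraries held 3747090 to 4865161 counts, without a difference past the threshold between groups (exact two-sided permutation p = 0.514, n = 4 per group). Levels are in CPM (counts scaled to a library total of 1000000), given as mean ± SD of 4 libraries. Changes are edgeR's fitted log2 values of shPROX1 less those of control, ± their standard error, and their p-values were adjusted over 12392 tested genes. A gene is said to have risen or fallen where that adjusted p was below 0.05. PROX1 fell to 8.79 ± 1.15 CPM in shPROX1 cells, against 18.6 ± 2.58 CPM in control cells, which is 47.6% of the control level (log2 change -1.07 ± 0.15, adjusted p = 4.89e-06). The skeletal muscle label held, in that its markers were present in both groups. DES had 473 ± 21.0 CPM in shPROX1 and 545 ± 16.4 CPM in control cells. MYOG, a factor of muscle differentiation, had 47.8 ± 2.69 and, in control, 121 ± 5.27 CPM. The myosin heavy chain MYH3 had 80.6 ± 2.62 and, in control, 156 ± 12.1 CPM (-0.94 ± 0.06). All 6 lineage markers were tested, 0 higher and 4 lower, against 17.3% of all tested genes higher and 17.9% lower. CHRNA1, an acetylcholine receptor subunit, did not pass the test (0.01 ± 0.04). Markers of other cell types were near 0: KRT5, KRT14, ESRP1, CD3E, HBB and CDH5 had no count in any library, the 5 epithelial markers summed to at most 0.534 CPM in shPROX1 and 0.206 CPM in control libraries, and the 5 endothelial markers to at most 3.49 and, in control, 7.54 CPM. TIE1, the most abundant of those, did not pass the test (-0.57 ± 0.34).

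After PROX1 silencing both cytoplasmic actins, the transgelin TAGLN and both calponins rose, while the muscle actin ACTC1 fell. In bulk RNA, a change in the number of cells making a transcript and a change of its level in each cell cannot be told apart. Of the 10 members, 7 passed the filter on low counts, and of these 5 rose, 1 fell and TAGLN2 did not pass the test. Among all tested genes 35.2% were called, 17.3% higher and 17.9% lower. The groups did not overlap for 6 of the 7 members, against 32.3% of all tested genes. The members were chosen with earlier results of these data known, so these counts are not independent evidence about the gene family. The median log2 change of the 7 was 0.19, and that of all tested genes -0.0066. Most of these changes were small: TAGLN (1.24) and CNN2 (0.40) lay above the range from -0.45 to 0.36 that holds the middle 80% of all tested genes, and the other 5 lay inside it.

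**Figure D1:**
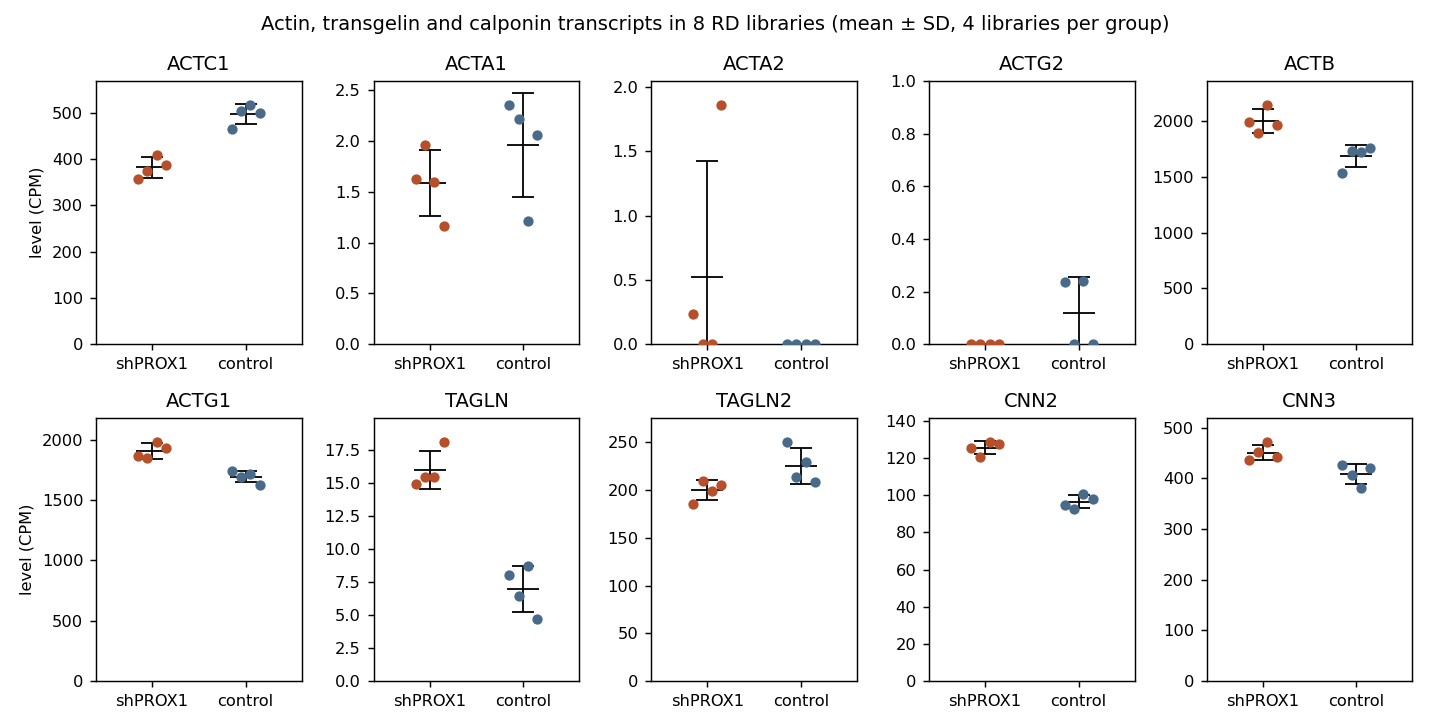
Levels of the 10 genes in CPM (y axes, linear from 0, each panel with its own scale) in 4 shPROX1 libraries and 4 control libraries; points are libraries and bars mean ± SD. All 4 shPROX1 points lie below the control points for ACTC1 and above them for ACTB, ACTG1, TAGLN, CNN2 and CNN3. ACTG2 lies at or near 0, as does ACTA2 in all libraries but shPROX1 replicate 4 (1.86 CPM).

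ACTC1, the cardiac alpha actin (chromosome 15, 34788096 to 34796139, minus strand, GRCh38), was the most abundant muscle actin per length, at 83.0 CPM per kilobase of exon in shPROX1 cells and 108 in control cells. Its levels were 357, 375, 409 and 387 CPM in the shPROX1 libraries and 466, 504, 517 and 500.3 CPM in the control libraries. Every shPROX1 library lay below every control library. ACTC1 fell to 78.1% of the control level (log2 change -0.36 ± 0.05, adjusted p = 4.08e-06), and its mean was 382 ± 21.9 CPM in shPROX1 and 497 ± 21.9 CPM in control cells. Its exons share 7.97% of their bases with GJD2-DT on the opposite strand, which had 1.43 ± 0.660 CPM in shPROX1 and 0.862 ± 0.169 CPM in control cells.

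ACTA1, the alpha actin of adult skeletal muscle (chromosome 1, 229431245 to 229434098, minus strand), was hardly expressed. It had 7, 8, 6 and 5 counts in the shPROX1 libraries and 10, 9, 5 and 10 counts in the control libraries. These values overlap, and the gene was below the filter on low counts. With no filter its log2 change was -0.27 (adjusted p = 0.698). Ratios of ACTC1 to ACTA1 were taken with 0.5 added to each count. They were 205, 180, 236 and 302 to 1 in the shPROX1 libraries and 188, 215, 389 and 232 to 1 in the control libraries. The log2 ratio of ACTC1 to ACTA1 differed by -0.12 between groups (exact two-sided permutation p = 0.657, adjusted p = 0.657 over the 4 ratios tested), with a direction that turned to 0.10 without control replicate 3.

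The smooth muscle actins were at the limit of detection. ACTA2 (chromosome 10, 88935074 to 88991339, minus strand) had 1, 0, 0 and 8 counts in the shPROX1 libraries and 0 counts in each control library, where a count of 0 allows up to 0.617 to 0.740 CPM. Of the 9 counts in shPROX1 cells, 8 came from replicate 4, in which ACTA2 reached 1.86 CPM. Without a filter on low counts edgeR gave ACTA2 an adjusted p of 0.0132, with 8 of the 9 counts in that library; DESeq2 gave no adjusted p. ACTG2 (chromosome 2, 73892314 to 73919865, plus strand) had 0 counts in every shPROX1 library and 1, 0, 1 and 0 counts in the control libraries, which is not distinguishable from 0 at this depth. No ratio of ACTG2 to ACTA2 was formed, since ACTG2 had at most 1 count in any library.

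ACTB and ACTG1, the cytoplasmic actins, were the most abundant members per length of exon. ACTB (chromosome 7, 5527151 to 5563784, minus strand) had 1994, 1894, 2144 and 1965 CPM in the shPROX1 libraries and 1538, 1727, 1726 and 1755 CPM in the control libraries. All shPROX1 values were higher, and control replicate 1 was the lowest library. ACTB rose 1.20-fold (log2 change 0.27 ± 0.04, adjusted p = 1.37e-05), and the change was 0.23 without control replicate 1. ACTG1 (chromosome 17, 81509971 to 81523847, minus strand) had 1863, 1847, 1983 and 1928 CPM in the shPROX1 libraries and 1736, 1693, 1712 and 1627 CPM in the control libraries. Again no control library reached the lowest shPROX1 library, and ACTG1 rose 1.14-fold (0.19 ± 0.03, adjusted p = 8.85e-05). ACTG1 and ACTB stayed close to 1 to 1 in counts: the ratio of ACTG1 to ACTB was 0.925 to 0.981 in shPROX1 and 0.927 to 1.13 in control libraries. The groups overlapped, and the log2 ratio differed by -0.07 (exact two-sided permutation p = 0.257, adjusted p = 0.343).

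Together the 6 actin genes took 0.422%, 0.412%, 0.454% and 0.428% of all counts in the shPROX1 libraries and 0.374%, 0.393%, 0.396% and 0.388% in the control libraries. That sum was higher in every shPROX1 library. When counts were divided by the length of all annotated exons, ACTC1 made up 6.12%, 6.58%, 6.53% and 6.52% of actin transcripts in the shPROX1 libraries and 9.03%, 9.38%, 9.56% and 9.43% in the control libraries. These shares are a description without a test, and their groups lie far apart. ACTB held 44.1 ± 0.754% in shPROX1 and 41.5 ± 1.79% in control cells, and ACTG1 49.4 ± 0.639% and, in control, 49.0 ± 1.96%. The 4 muscle actins together held 6.54 ± 0.218% in shPROX1 and 9.47 ± 0.199% in control cells, of which all but a trace was ACTC1.

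**Figure D2:**
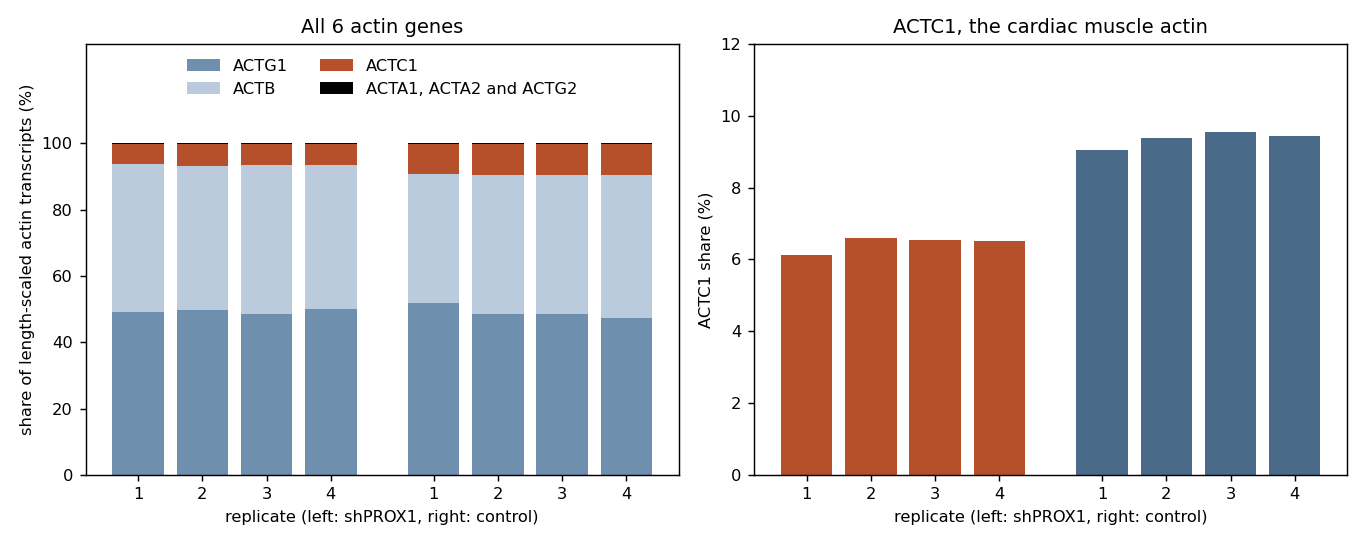
Left: shares of the 6 actin genes (y axis, percent of actin counts per length of annotated exons) in each shPROX1 and control library. Right: the ACTC1 share alone on its own axis from 0, at 6.12% to 6.58% in the shPROX1 libraries and 9.03% to 9.56% in the control libraries.

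TAGLN, the smooth muscle transgelin (chromosome 11, 117199321 to 117204782, plus strand), showed the largest change of the 7 tested members. It had 14.9, 15.4, 15.5 and 18.1 CPM in the shPROX1 libraries and 8.01, 6.41, 8.71 and 4.73 CPM in the control libraries. The lowest shPROX1 library was well above the highest control library. TAGLN rose 2.35-fold (log2 change 1.24 ± 0.17, adjusted p = 4.96e-06), on 263 counts in shPROX1 and 119 counts in control cells. Its exons share 11.4% of their bases with PCSK7 on the opposite strand, and PCSK7 did not pass the test (0.16 ± 0.10).

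TAGLN2, the transgelin of most other cells (chromosome 1, 159918107 to 159925732, minus strand), went the other way without passing the test. It had 186, 209.9, 199 and 205 CPM in the shPROX1 libraries and 251, 214, 229 and 209 CPM in the control libraries. The groups overlapped, with control replicate 4 inside the shPROX1 range. Its log2 change was -0.15 ± 0.06 (adjusted p = 0.0537), and it was called with upper-quartile factors (adjusted p = 0.0453), without mitochondrial genes (adjusted p = 0.0380), without control replicate 2 (adjusted p = 0.0437) or without control replicate 4 (adjusted p = 0.0238). With 0.5 added to each count, the ratio of TAGLN to TAGLN2 was 0.0807, 0.0740, 0.0783 and 0.0890 in the shPROX1 libraries. In the control libraries it was 0.0324, 0.0306, 0.0385 and 0.0231. The groups did not overlap in this ratio, which was 2.62-fold higher in shPROX1 cells; the exact two-sided permutation p was 0.0286, the smallest that 70 arrangements allow, and 0.0571 after adjustment over the 4 ratios.

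The calponins both rose, CNN2 by more in log2 terms. CNN2 (chromosome 19, 1026581 to 1039068, plus strand) had 125, 121, 129 and 128 CPM in the shPROX1 libraries and 94.9, 92.7, 101 and 98.3 CPM in the control libraries. The groups were clearly separate, and CNN2 rose 1.32-fold (log2 change 0.40 ± 0.05, adjusted p = 2.77e-06). CNN3 (chromosome 1, 94896949 to 94927278, minus strand) had 437, 452, 472 and 443 CPM in the shPROX1 libraries and 425, 407, 380.0 and 419.5 CPM in the control libraries. The gap between the groups was narrow, from 437 CPM in shPROX1 replicate 1 to 425 CPM in control replicate 1, and CNN3 rose 1.12-fold (log2 change 0.17 ± 0.05, adjusted p = 0.00750). With 0.5 added to each count, the ratio of CNN3 to CNN2 was 3.49, 3.73, 3.66 and 3.47 in the shPROX1 libraries. In the control libraries it was 4.48, 4.39, 3.77 and 4.27. It was lower in every shPROX1 library (log2 difference -0.23, exact two-sided permutation p = 0.0286, adjusted p = 0.0571 over the 4 ratios).

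**Figure D3:**
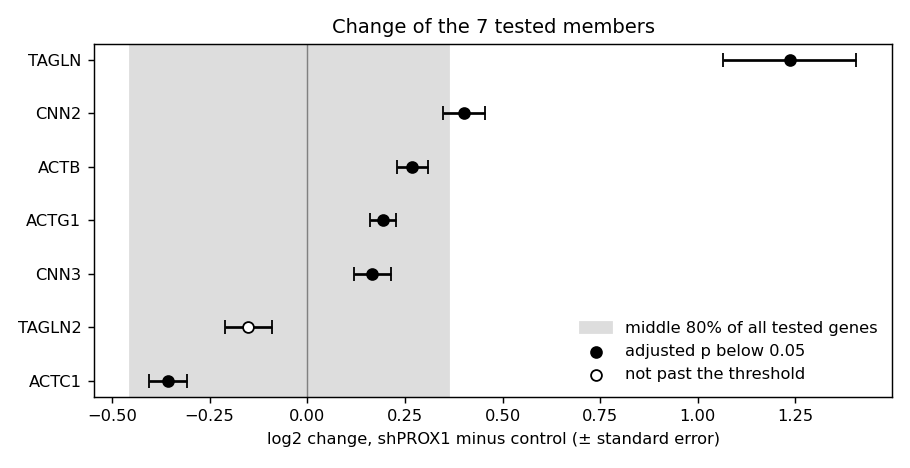
Log2 change (x axis, shPROX1 minus control, ± standard error) of the 7 members that passed the filter on low counts; filled points have an adjusted p below 0.05. TAGLN at 1.24 and CNN2 at 0.40 lie right of the grey band that holds the middle 80% of all tested genes, and ACTC1 at -0.36 lies inside it on the left.

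Per kilobase of annotated exons the order of the members was nearly the same in both groups. ACTG1 led with 637 ± 20.9 CPM per kilobase in shPROX1 and 565 ± 15.7 in control cells, followed by ACTB with 568 ± 29.8 and, in control, 479 ± 28.3. CNN3 followed with 159 ± 5.46 in shPROX1 and 144 ± 7.11 in control. ACTC1 had 83.0 ± 4.76 and, in control, 108 ± 4.76, and TAGLN2 80.4 ± 4.16 and, in control, 90.7 ± 7.60, so that ACTC1 and TAGLN2 overlapped in the shPROX1 libraries but not in the control libraries. CNN2 stood at 34.5 ± 0.968 CPM per kilobase in shPROX1 and 26.5 ± 0.960 in control cells, TAGLN at 4.08 ± 0.372 and, in control, 1.78 ± 0.453, and ACTA1 at 1.06 ± 0.218 and, in control, 1.31 ± 0.345. With the length of the principal transcript instead, ACTB (1041 CPM per kilobase in shPROX1, 878 in control) passed ACTG1 (844 in shPROX1, 750.0 in control) and TAGLN2 passed ACTC1. Orders of near neighbours therefore depend on the length chosen.

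The relatives outside the list were scarce. CNN1, the calponin of smooth muscle, had 2.94 ± 0.722 CPM in shPROX1 and 2.41 ± 0.674 CPM in control cells and did not pass the test (0.32 ± 0.30, adjusted p = 0.450). TAGLN3, a transgelin of neurons, had 3, 0, 3 and 1 counts in the shPROX1 libraries and 5, 6, 4 and 4 counts in the control libraries and was below the filter. The list of other family genes, CNN1, TAGLN3 and ACTBL2, thus had 1 tested gene and no call. Of the 9 smooth muscle markers outside the members, 6 were tested, 3 higher and 0 lower, against 17.3% of all tested genes higher and 17.9% lower: the myosin light chain MYL9 (0.83 ± 0.15), smoothelin SMTN (0.38 ± 0.11) and the actin-binding SYNPO2 (0.38 ± 0.06) rose. CALD1, or caldesmon, did not pass (-0.00 ± 0.06). MYOCD, the master cofactor of the smooth muscle programme, had 0 counts in all 8 libraries. MYH11, the smooth muscle myosin, had 1, 1, 0 and 2 counts in the shPROX1 libraries and 0, 1, 0 and 0 in the control libraries. LMOD1, also below the filter, had 0, 2, 1 and 1 counts in the shPROX1 libraries and 2, 3, 4 and 7 in the control libraries. The summed level of the 9 markers was 359 to 398 CPM in shPROX1 and 325 to 355 CPM in control libraries; its part in the rise of TAGLN was not tested.

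SRF, the factor that binds the CArG box, rose with several of its known targets. SRF had 68.7, 61.2, 65.1 and 66.0 CPM in the shPROX1 libraries and 48.5, 46.4, 46.0 and 38.4 CPM in the control libraries. Every shPROX1 library was higher (log2 change 0.57 ± 0.08, adjusted p = 4.41e-06). Its actin-sensing cofactors did not pass the test: MRTFA had 23.9 ± 1.51 CPM in shPROX1 and 22.5 ± 2.82 CPM in control cells (0.11 ± 0.11), and MRTFB 17.3 ± 3.06 and, in control, 19.0 ± 2.996 CPM (-0.13 ± 0.14). Of the 10 genes for SRF and its cofactors 8 were tested, 4 higher and 0 lower (median 0.21). Among all tested genes 17.3% were higher and 17.9% lower. The partner factors ELK3 (1.07 ± 0.08) and ELK1 (0.31 ± 0.09) and the LIM protein FHL2 (0.82 ± 0.12) rose, and ELK4 (-0.04 ± 0.09) did not pass. Of 19 genes listed as SRF targets outside the members, not all of them parts of the cytoskeleton, 18 were tested. In this list 13 were higher and 0 lower, against 17.3% of all tested genes higher and 17.9% lower. The median log2 change was 0.36 in the list and -0.0066 over all tested genes. CCN2, a matricellular protein, had 15.2 ± 3.19 CPM in shPROX1 and 4.36 ± 1.46 CPM in control cells (1.82 ± 0.21), its relative CCN1 28.0 ± 10.97 and, in control, 10.9 ± 1.40 CPM (1.36 ± 0.20), and FHL2 and MYL9 followed. The tropomyosin TPM4 (0.08 ± 0.04) did not pass. This list shares genes, SRF itself among them, with the smooth muscle, cofactor, crosslinker and family lists, and it was drawn up with earlier results of these data known, so its count is no independent evidence of direction. The median of the 7 members tested (0.19) lay below that of this list.

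Among genes that handle actin monomers and turn filaments over, 11 of 21 rose. All 21 were tested, and 3 were lower (median 0.16), against 17.3% of all tested genes higher and 17.9% lower. The monomer-binding thymosin TMSB10 had 1064 ± 35.2 CPM in shPROX1 and 847 ± 67.3 CPM in control cells (0.35 ± 0.05). WDR1, which aids cofilin in taking filaments apart, rose (0.44 ± 0.06), as did SSH1, a phosphatase that activates cofilin (0.49 ± 0.08). Twinfilin TWF1, which also binds monomers, fell (-0.55 ± 0.06). Profilin PFN1 was not called, with 418 ± 23.6 CPM in shPROX1 and 391 ± 21.8 CPM in control cells (0.12 ± 0.05, adjusted p = 0.0818).

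Crosslinkers and adhesion adaptors moved both ways. Of 19 genes 18 were tested, 9 higher and 3 lower (median 0.11), against 17.3% of all tested genes higher and 17.9% lower. The non-muscle alpha-actinins ACTN4, with 459 ± 21.1 CPM in shPROX1 and 329.6 ± 12.9 CPM in control cells (0.50 ± 0.05), and ACTN1 (0.51 ± 0.06) rose, as did palladin PALLD (0.56 ± 0.08). LASP1, a LIM and SH3 protein that binds actin, fell (-0.66 ± 0.06). The muscle filamin FLNC did not pass (-0.01 ± 0.04).

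Among nucleators of new filaments, genes were called in both directions. Of the 9 subunits of the Arp2/3 complex, which starts branched filaments, 3 were higher and 0 lower (median 0.12): ARPC5 (0.41 ± 0.06), ARPC1A (0.39 ± 0.08) and ARPC5L (0.28 ± 0.09) rose, while ACTR3 (0.12 ± 0.05) did not pass. Of 19 formins and WASP family genes 16 were tested, 4 higher and 2 lower (median 0.02). The formin FHOD1 had 51.8 ± 5.21 CPM in shPROX1 and 25.4 ± 1.11 CPM in control cells (1.05 ± 0.09) and DAAM2 rose (0.32 ± 0.09), whereas DAAM1 (-0.61 ± 0.10) and WASF3 (-0.30 ± 0.09) fell and FMNL2 (-0.03 ± 0.08) did not pass. Of 18 genes for the folding and modification of actin 16 were tested, 5 higher and 1 lower (median 0.08). TCP1, a subunit of the chaperonin that folds actin, had 1312 ± 61.0 CPM in shPROX1 and 1132 ± 16.2 CPM in control cells (0.24 ± 0.04). The prefoldins PFDN2 (0.38 ± 0.07) and PFDN1 (0.26 ± 0.07) rose, the phosducin-like PDCL3 fell (-0.67 ± 0.16), and the chaperonin subunit CCT5 (0.08 ± 0.04) did not pass. Shares called of 33.3% for the Arp2/3 complex and 37.5% each for the nucleators and the folding genes are near the 35.2% of all tested genes. The shares called were 66.7% each for the monomer and crosslinker genes, 72.2% for the SRF targets, and 4 of 8 for SRF and its cofactors.

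**Figure D4:**
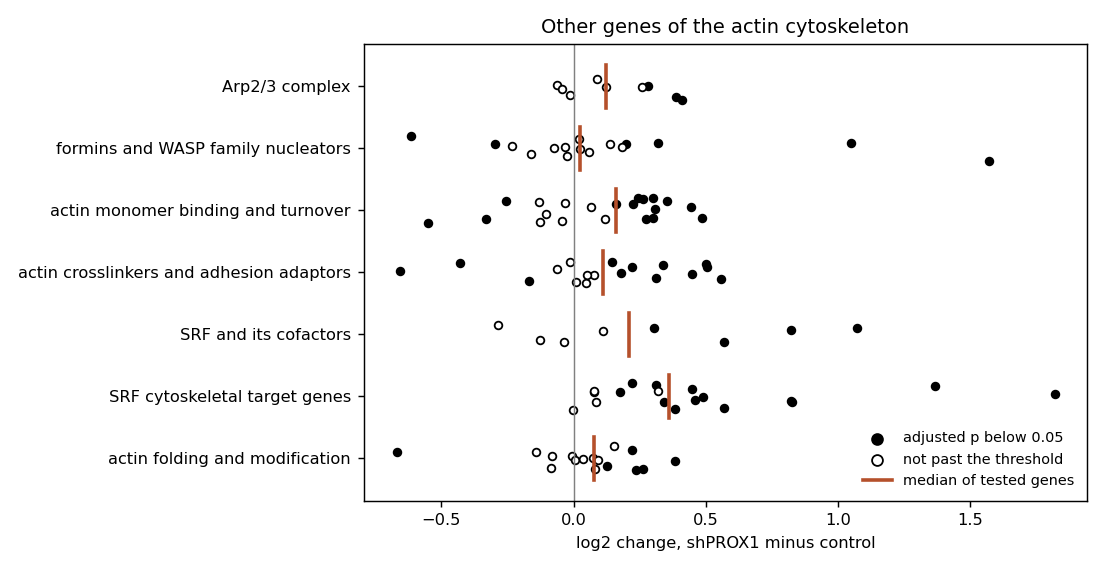
Log2 change (x axis, shPROX1 minus control) of the tested genes in 7 lists of the actin cytoskeleton, 1 row per list; filled points have an adjusted p below 0.05 and the bar is the median. The SRF targets have the highest median at 0.36, with 13 of 18 called higher, and the formins and WASP family genes the lowest at 0.02.

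The genes most like 2 of the members over the 8 libraries were sought among 7963 tested genes of at least 20 CPM, by Pearson correlation of log2 CPM. For TAGLN, the member of largest change, these were LMNA (r = 0.992), SLC1A5 (r = 0.991) and ADPGK (r = 0.987), with log2 changes of 0.23 ± 0.04, 0.35 ± 0.05 and 0.33 ± 0.06. For ACTB, the member of highest mean CPM over all 8 libraries, they were TGFBR2 (r = 0.989), KCNQ5 (r = 0.988) and CD44 (r = 0.987), with log2 changes of 0.52 ± 0.07, 0.51 ± 0.09 and 0.52 ± 0.07. The 8 libraries fall into 2 groups that differ, so any gene with a clean group difference scores high on this measure.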

How the data were processed

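Total RNA of 4 shPROX1 and 4 control libraries was sequenced from a directional kit, per the labels' protocols. Each deposited file gives 1 library's read counts by gene, which the authors had not normalized. Tools named in the submitters' processing notes are HISAT2, HTSeq, FastQC and DESeq2, with the build GRCh38 (hg38); versions, annotation release and strand setting are not given in the sources used here. Of 58302 identifiers, 58039 matched GENCODE 29, which gave symbols, exon lengths and transcripts; coordinates are the files', with starts counted from 1. In the files, 0 rows name no gene.

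The main test was the quasi-likelihood test of edgeR 4.0.16 (R 4.3.3), fitted to all 8 libraries on group alone after TMM scaling and the filterByExpr filter. P-values were adjusted by Benjamini-Hochberg over every tested gene, and 0.05 was the threshold. CPM values use library totals. Ratios used 0.5 added to each count and were compared by exact two-sided permutation, with 70 arrangements, adjusted over 4 ratios; ACTG2 over ACTA2 was left out. A count of 0 allows 3 counts; such limits cover counting error only. No library was a copy of another in the 12 pairs within groups. Chi-square over its degrees of freedom was 1.19 to 2.16 between shPROX1 libraries and 2.39 to 6.34 between control libraries. The check covers identical counts only and does not show that the libraries came from separate cultures.

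The members and lists were chosen with earlier results of these data known. Named genes were the members, PROX1, SRF, MRTFA, MRTFB, MYOCD, CNN1, TAGLN3, from each list up to 4 called genes of largest change (mean of at least 5 CPM) with its most abundant gene that was not called, ACTG1P20, and the 3 genes most like TAGLN and ACTB. MYH11, LMOD1, ACTBL2, marker genes at 0 and genes that share exons with a member were named after their values were seen. Log2 CPM for that search had 1 added. The alternatives tried were upper-quartile or RLE scaling, mitochondrial genes left out, no filter, 1 CPM in 4 libraries, DESeq2 1.42.0, limma 3.58.1 voom, a replicate block, each library left out, a threshold of 0.01, 2 added in ratios, no length division, and, chosen after seeing the data, principal transcript length. Simulated data were made with 200 altered genes, and 12276 genes in all were tested. The test called 68.4% of 79 genes altered by 0.5 in log2, 94.7% of 76 altered by 1, and 3 of 12082 unaltered genes. In the real data 35.2% of tested genes were called, and whether these rates hold there was not tested. Recovery of sizes below 0.5, as for every tested member except TAGLN, was not tested either. Other software was scipy 1.17.1, pandas 2.3.3, Biopython 1.88, numpy 2.4.6 and matplotlib 3.10.9 under Python 3.11.15. Some items are not reported here.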

Additional observations from a re-analysis of the deposited data

Results flagged for a closer look

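In 136 sets of 4 libraries examined, 10 had a library whose distance from the next one exceeded Dixon's 95% limit for 4 values; chance alone flags about 1 set in 20. Among the members, ACTA2 was highest in shPROX1 replicate 4 (1.86 CPM, 8 counts), against 0 to 0.233 CPM in the other shPROX1 libraries. ACTB was lowest in control replicate 1 (1538 CPM), against 1726 to 1755 CPM in the other control libraries. Control replicate 1 was also lowest for both TGFBR2 (84.1 CPM against 99.9 to 102 CPM) and KCNQ5 (44.8 CPM against 58.8 to 59.9 CPM), which were picked for their likeness to ACTB. TGFBR2 was highest in shPROX1 replicate 3 (155 CPM, against 129 to 132 CPM in the others of that group). TMSB10 was lowest in shPROX1 replicate 3 (1012 CPM against 1079 to 1085 CPM). CNN1 was lowest in shPROX1 replicate 1 (1.86 CPM against 3.20 to 3.43 CPM). DAAM1 was highest in control replicate 3 (35.6 CPM against 32.3 to 32.5 CPM), CCN2 was highest in the same library (6.53 CPM against 3.45 to 3.91 CPM), and DAAM2 was lowest in control replicate 2 (28.4 CPM against 33.0 to 33.9 CPM). No further test was made of these libraries.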

How the results depend on the processing

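ACTB, ACTC1, ACTG1, TAGLN, CNN2, CNN3 and PROX1 kept their direction and their call in all 17 alternatives, with log2 changes of 0.23 to 0.29 (ACTB), -0.38 to -0.33 (ACTC1), 0.17 to 0.21 (ACTG1), 1.07 to 1.36 (TAGLN), 0.39 to 0.42 (CNN2), 0.13 to 0.19 (CNN3) and -1.15 to -0.99 (PROX1). TAGLN2 gained a call with upper-quartile factors (-0.16), without mitochondrial genes (-0.15), without control replicate 2 (-0.17) and without control replicate 4 (-0.19); over the libraries left out in turn its log2 change was -0.19 to -0.093 and its adjusted p 0.0238 to 0.191, and the cause was not tested. The log2 ratio of ACTC1 to ACTA1 was -0.26 to 0.10 over the libraries left out. Genes called higher numbered 1507 to 2281 over the alternatives, against 2147, and genes called lower 1479 to 2298, against 2217. Of 442 list counts, 430 stayed within 1.5 times; the 12 others changed by 1 or 2 genes in the lists of formins, SRF cofactors and folding genes. Counts not divided by length gave ACTC1 8.91% of actin counts in shPROX1 and 12.8% in control cells, and principal transcript length 5.20% and, in control, 7.62%; ACTB's share overlapped between groups with principal transcript length. With the replicate number as a block, ACTB changed by 0.27, TAGLN by 1.24, ACTC1 by -0.36 and CNN3 by 0.17, with 2075 genes higher and 2112 lower, and no member's call changed. Same-numbered libraries did not deviate together (r of deviations -0.090 to 0.12, own number best for 0 of 4), so the numbers were not taken to pair samples. Differently numbered libraries of the 2 groups had r of -0.41 to 0.29, and structure shared under other numbers was not tested. Depth limits ACTA1, ACTA2 and ACTG2, which were below the filter on low counts. With no filter ACTA2 gained a call (adjusted p = 0.0132 by edgeR) on 9 counts, 8 of them in shPROX1 replicate 4, while ACTA1 (adjusted p = 0.698) and ACTG2 (adjusted p = 0.451) did not.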
